A study of Mus musculus with 94 samples.

Results

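Medullary tubules of kidneys injured 1 day earlier were compared with medullary tubules of uninjured kidneys. The comparison holds 4 of the 94 profiled segments, chosen by their sample titles, which name the medulla, the panCK compartment and the groups I1V and CTRL. Each group had 2 such segments, 1 from each of 2 sections that the prefixes E1 and E2 tell apart (section 1 and section 2). The 8 cortical tubule segments of the same groups, 2 per section, served as a contrast. All animals were male C57BL/6 mice. The I1V kidneys had undergone unilateral ischemia-reperfusion injury (IRI) of the left kidney, by clamping of the renal pedicle, after a DMSO vehicle injection, and were collected on day 1. The controls (CTRL) were unmanipulated kidneys, and the labels do not say for each sample whether it was the contralateral kidney of an injured mouse or a kidney of a healthy mouse. Of the other medullary sections, I7V and I14V held vehicle-treated IRI kidneys on days 7 and 14. I1E, I7E and I14E held IRI kidneys on days 1, 7 and 14, given the SYK inhibitor entospletinib before the injury. In the groups of days 7 and 14 treatment continued after the injury, with daily injections and later injections every 2 days. The design text gives 2 mice per condition and time point, without stating that a prefix is 1 mouse. P-values therefore measure the spread between sections (n = 2 per group), estimated over the sections of all 7 groups.

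The medulla lies beneath the cortex of the kidney and holds the straight ends of proximal tubules, the loops of Henle and the collecting ducts. It works at low oxygen tension because its blood supply is sparse and the salt transport of the thick ascending limb consumes much energy. The outer medulla is known as a site of severe tubular damage after ischemia, where epithelial cells lose transporters and brush border, switch on injury genes and attract leukocytes. Tubular segments were areas of formalin-fixed sections positive for panCK, an epithelial cytokeratin stain, with or without CD10, a protease of proximal tubule membranes. Macrophage segments were areas positive for IBA1, a protein of macrophages.

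Transcripts were measured by digital spatial profiling, in which probes hybridized to RNA carry barcodes that are released by light from a chosen area and counted. Each value is a count of unique molecular identifiers (UMIs) for 1 of 20175 probes, which the files list by identifier without gene names. Results are therefore given for probes and for groups of probes, and no pathway or cell type could be named from them. The control segments held 4821455 and 6500412 counts, and the day 1 segments held 1863750 and 1235205. One count was worth 0.207 and 0.154 CPM (counts scaled to a common total for each segment) in the controls, and 0.537 and 0.810 CPM on day 1. No probe was at 0 in any of the 4 segments, and the shallowest had a median of 34 counts per probe. The 10th percentile over probes was 9.54 and 13.1 CPM in the controls and 13.4 and 14.6 CPM on day 1. Background was not subtracted, so a count above 0 does not show that a transcript was detected. Sequencing saturation was between 74.3% and 79.4%. The single most abundant probe took 4.89% and 2.99% of control counts and 4.51% and 3.56% of day 1 counts, which did not pass the test (log2 fold change -0.14, SE 0.56; adjusted p = 0.96, edgeR's quasi-likelihood test).

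One segment went against its label. Regional probes were listed from the 10 sections that belong to neither group, where 51 probes were called more than 2-fold higher in medullary tubules (medulla-leaning) and 122 in cortical tubules (cortex-leaning), or 0.253% and 0.605% of all probes. In the medullary control segment of section 1, the median medulla-leaning probe stood at 251.2 CPM and the median cortex-leaning probe at 39.6 CPM, a ratio of 6.34. The medullary day 1 segments gave ratios of 2.78 and 2.16. The segment labelled medullary in control section 2 gave 34.6 and 129.5 CPM, a ratio of 0.267, which lay within the range of 0.103 to 0.631 of the 8 cortical segments. The macrophage segment of the same region gave a ratio of 0.31, against 3.40 for that of control section 1. Section 2 of I7E, which helped to make the lists, had a ratio of 0.490 in its medullary tubules, and lists made without it gave ratios of 4.96 and 0.266 for the medullary controls and 3.32 and 2.24 for day 1. The medullary calls, the named probes, the difference between regions and the lists are given below with both controls and without control section 2. Most other results are given with both controls only. The SD of log2 CPM over probes was 1.26 in control section 1, against 1.04 to 1.07 in the other 3 of the 4 segments compared.

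**Figure D1:**
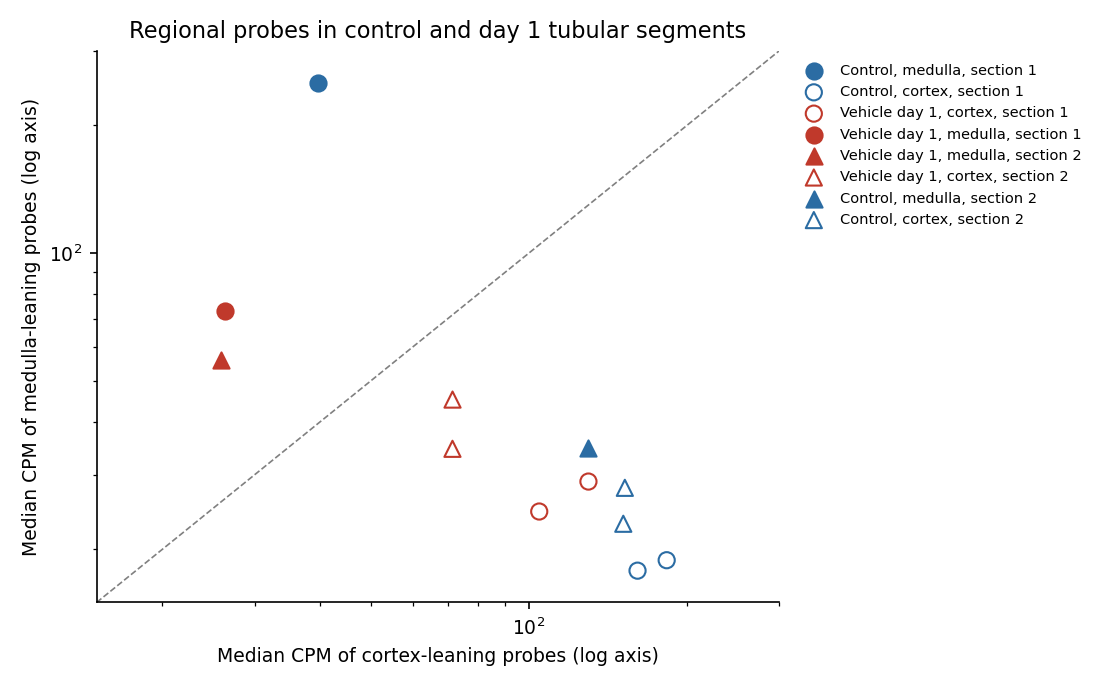
Each point is a tubular segment, placed by the median CPM of its 122 cortex-leaning probes (x axis, log scale) and of its 51 medulla-leaning probes (y axis, log scale), with equality dashed. Both day 1 medullary segments and that of control section 1 lie above the line, and the segment labelled medullary in control section 2 lies below it at a ratio of 0.267, among the cortical segments.

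On day 1, 581 probes were higher and 633 were lower in medullary tubules than in controls. Calls were made at a Benjamini-Hochberg adjusted p under 0.05 in edgeR's quasi-likelihood test and an absolute log2 fold change above 1, so that 6.02% of the 20175 tested probes were called, 2.88% higher and 3.14% lower. The fit shared its estimate of the spread over the 14 medullary sections of all 7 groups. Without control section 2, 396 probes were higher (1.96%) and 772 lower (3.83%), of which 350 and 543 were among the first lists. Over all probes, the log2 fold changes had a median of 0.07 with both controls and of 0.20 without control section 2.

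The probes that rose had a median log2 fold change of 1.47, with 338 of 581 between 2- and 3-fold, 133 above 4-fold and 36 above 8-fold. Those that fell had a median of -1.60, with 309 of 633 between 2- and 3-fold, 193 beyond 4-fold and 48 beyond 8-fold. The SE of the log2 fold change had a median of 0.31 for the former and 0.35 for the latter. For each of the 1214 probes, both day 1 values lay outside the range of both controls. That order alone was frequent, as both day 1 segments were above both controls in 33.1% of all probes and below in 11.5%.

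**Figure D2:**
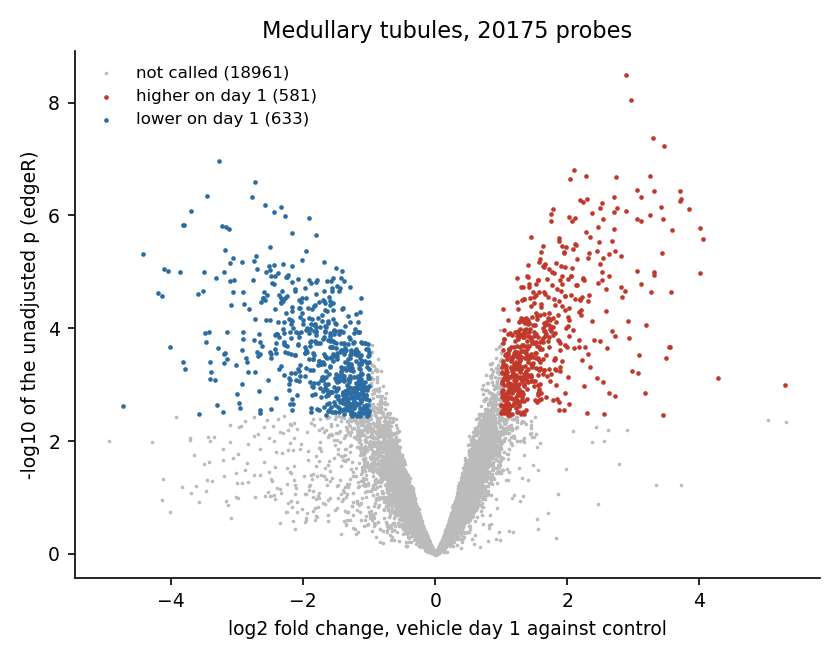
Each point is 1 of 20175 probes in medullary tubules, with the log2 fold change of vehicle day 1 against control (x axis) and the -log10 of the unadjusted p of edgeR's quasi-likelihood test (y axis). The 581 probes called higher reach a log2 fold change of 5.29 and the 633 called lower reach -4.73.

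The probes that fell were mostly abundant ones, and those that rose were spread more widely. When probes were split into quartiles by mean CPM over the 14 medullary sections, the most abundant quartile, above 44.0 CPM, held 557 of the 633 that fell (11.0% of its probes) and 255 of the 581 that rose (5.06%). The next quartile, from 25.6 CPM, held 69 that fell and 175 that rose. The lower pair of quartiles held 3 and 4 that fell, and 29 and 122 that rose. Background was not subtracted, so probes at low levels had little room to fall. The split thus cannot show whether transcripts of low abundance were lost. The probes that rose took 1.91% and 2.12% of all control counts, and 7.65% and 10.2% of day 1 counts. Those that fell took 17.1% and 14.7% of control counts, and 4.51% and 3.79% on day 1. Fewer cells of a type and less RNA per cell cannot be told apart in such areas.

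Probe RTS0069065 had the smallest adjusted p of the probes that rose. It was at 11.0 and 16.2 CPM in the controls and at 115.4 and 103.6 CPM on day 1, from 53, 105, 215 and 128 counts. The control values lay near the 10th percentile of their segments, with no background subtracted. Both day 1 segments were far above both controls and close to each other (109.5 ± 8.30 against 13.6 ± 3.65 CPM, SD, n = 2), a log2 fold change of 2.88 (SE 0.23; adjusted p = 6.44e-05, edgeR). In cortical tubules the same probe was at 9.16 and 15.1 CPM in controls and at 17.6 and 17.1 CPM on day 1, a log2 fold change of 0.42 (SE 0.25). The medullary exceeded the cortical change by 2.44 on the log2 scale (SE 0.31; adjusted p = 0.000539, edgeR). In the other medullary sections its level was 19.9 and 20.2 CPM in I1E, 36.8 and 34.3 in I7V, 18.4 and 11.7 in I7E, 24.6 and 19.1 in I14V, and 11.8 and 9.93 in I14E. The day 1 vehicle sections thus held its highest values of the 14.

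Probe RTS0064218 was at 10.6 and 16.0 CPM in the controls and at 122.9 and 102.8 CPM on day 1 (13.3 ± 3.83 against 112.8 ± 14.2 CPM, SD, n = 2). Its control values were also near the 10th percentile of their segments. The groups did not overlap, and the log2 fold change was 2.96 (SE 0.26; adjusted p = 9.1e-05, edgeR). It stayed nearer to this level in the later vehicle sections, at 91.1 and 58.3 CPM in I7V and 69.8 and 72.6 in I14V, than RTS0069065 did. Levels were 22.8 and 30.0 CPM in I1E, 11.7 and 8.16 in I7E, and 10.7 and 10.0 in I14E. In cortical tubules it was at 9.38 and 16.2 CPM in controls and 20.7 and 29.9 CPM on day 1. Its difference between regions of 2.07 on the log2 scale missed the threshold (SE 0.49; adjusted p = 0.0685, edgeR).

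Probe RTS0062084 had the smallest adjusted p of those that fell. It was at 141.2 and 112.0 CPM in the controls and at 16.6 and 12.1 CPM on day 1, from 681, 728, 31 and 15 counts. The day 1 values lay near the 10th percentile of their segments, with no background subtracted. The loss was seen in both day 1 segments (126.6 ± 20.7 against 14.4 ± 3.17 CPM, SD, n = 2), with a log2 fold change of -3.27 (SE 0.34; adjusted p = 0.00043, edgeR). In cortical tubules it was at 132.5 and 121.7 CPM in controls and at 132.0 and 57.4 CPM on day 1, so that only day 1 section 2 was below both controls there. The difference of the changes was -2.72 on the log2 scale (SE 0.31; adjusted p = 0.000282, edgeR). Medullary levels were 79.6 and 39.6 CPM in I1E, 74.8 and 73.7 in I7V, 77.6 and 86.0 in I14V, 161.2 and 119.7 in I7E, and 152.2 and 159.3 in I14E.

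Probe RTS0061334 fell from 102.0 and 111.7 CPM in the controls to 18.8 and 16.2 CPM on day 1 (106.9 ± 6.82 against 17.5 ± 1.83 CPM, SD, n = 2). Its day 1 values lay below the medians of their segments, which were 27.4 and 27.5 CPM. Replicates of each group lay close together, and the log2 fold change was -2.74 (SE 0.31; adjusted p = 0.000463, edgeR). In cortical tubules it was at 170.4 and 112.3 CPM in controls and at 91.2 and 51.9 CPM on day 1, a log2 fold change of -1.10 (SE 0.40; adjusted p = 0.93, edgeR). The cortical groups did not overlap for this probe, as in 8.42% of all probes that were below and 15.7% that were above both control sums. The difference between regions was -1.70 (SE 0.50; adjusted p = 0.124, edgeR). Its medullary level was 62.3 and 37.3 CPM in I1E, 41.4 and 41.7 in I7V, 31.3 and 35.3 in I14V, 118.3 and 166.9 in I7E, and 128.0 and 132.4 in I14E.

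The macrophage areas of the same regions were read for these 4 probes as well. In the day 1 medullary macrophage segments, RTS0069065 was at 105.0 and 37.7 CPM and RTS0064218 at 111.3 and 59.3 CPM. RTS0062084 was at 19.1 and 10.8 CPM and RTS0061334 at 19.1 and 21.6 CPM. The latter values were below those of the control macrophage segments, which were 86.2 and 109.5 CPM for RTS0062084 and 129.3 and 88.9 CPM for RTS0061334. Without control section 2 each of the 4 was still called, with log2 fold changes of 3.05 for RTS0069065, 3.16 for RTS0064218, -3.53 for RTS0062084 and -2.80 for RTS0061334.

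**Figure D3:**
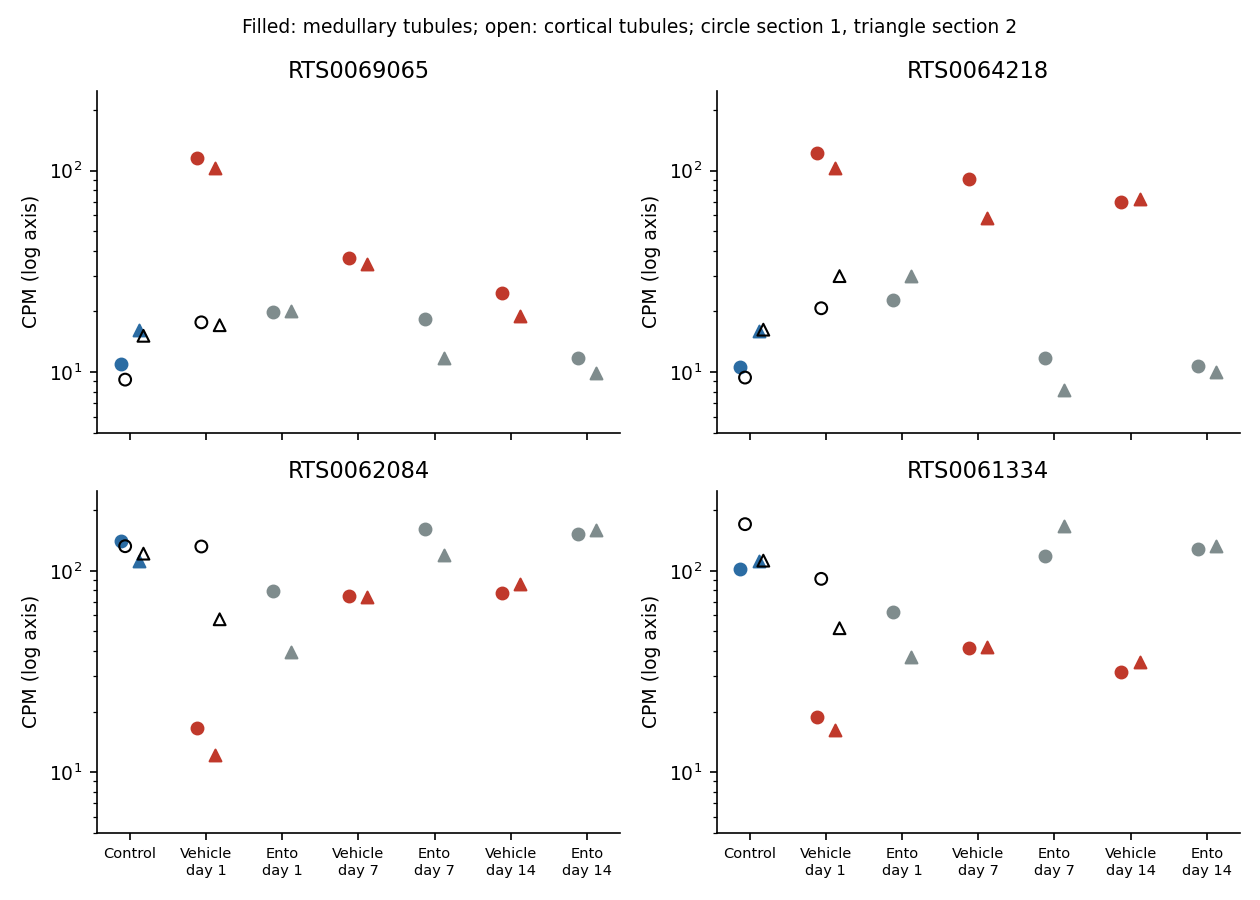
Each panel gives the CPM (log axis) of 1 probe in the 14 medullary tubule sections (filled) and, for control and vehicle day 1, in the cortical tubule sections (open), with circles for section 1 and triangles for section 2. In medullary tubules RTS0069065 and RTS0064218 lie above 100 CPM on vehicle day 1 and at 10.6 to 16.2 CPM in controls, and RTS0062084 and RTS0061334 lie at 12.1 to 18.8 CPM on vehicle day 1 and at 102.0 to 141.2 CPM in controls.

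In medullary tubules the largest rise was uneven between the day 1 sections, and the largest fall was more even. Among the 10 largest rises, of which 3 were macrophage-leaning and 3 tubule-leaning probes as defined below, log2 fold changes ran from 3.58 to 5.29, control values from 4.15 to 59.5 CPM and day 1 values from 51.5 to 1988 CPM. The probe with the largest rise was at 27.2 and 21.4 CPM in controls but at 1988 and 97.1 CPM on day 1, so that section 1 was far above section 2 (SE 1.13; adjusted p = 0.0209, edgeR). In cortical tubules that probe was at 14.0 and 18.2 CPM in controls and at 43.4 and 43.5 CPM on day 1. The 10 largest falls ran from -4.73 to -3.82, with 7 tubule-leaning and 0 macrophage-leaning probes among them (1.31% and 2.04% of all probes) and 3 that were on a regional list. The largest took a probe from 751.8 and 529.7 CPM in controls to 29.5 and 24.3 CPM on day 1 (SE 1.17; adjusted p = 0.0379, edgeR). In cortical tubules it was at 209.5 and 495.8 CPM in controls and 93.9 and 26.5 CPM on day 1.

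Between the day 1 segments, the probes that rose varied more than other probes. The median absolute log2 difference between the day 1 segments was 0.62 for the 581 probes, 0.27 for the 633 that fell and 0.27 for all probes. Between the controls it was 0.33, 0.34 and 0.42. Each prefix also gave a comparison of its own, of 1 day 1 segment with 1 control, with no segment in common. That of section 2 used the control segment that went against its label. These values had no upper quartile normalization. Over all probes the median log2 difference was 0.41 in section 1 and 0.04 in section 2, an offset that the counts below include. On log2(CPM + 1), 1510 probes were more than 2-fold higher in section 1 and 1087 in section 2, and 568 were so in both, which was 37.6% of the former and 52.3% of the latter. For comparison, 7.48% and 5.39% of all probes were that much higher. More than 2-fold lower were 909 and 944 probes, of which 534 were shared, or 58.7% and 56.6%, against 4.51% and 4.68% of all probes. Only 7 probes were more than 2-fold higher in section 1 and more than 2-fold lower in section 2, and 11 were the reverse.

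Both sections showed the change in the whole groups of called probes, which the test had chosen on these values. The median level of the 581 probes was 18.3 and 22.6 CPM in controls and 56.3 and 82.6 CPM on day 1. For the 633 probes it was 139.8 and 119.1 CPM in controls and 45.1 and 41.3 CPM on day 1. The other medullary sections entered the fit through the shared estimate of the spread and not through the fold change. There the 581 probes had a median level of 27.6 and 30.2 CPM in I1E, 42.9 and 34.5 in I7V, 24.8 and 18.1 in I7E, 58.1 and 55.2 in I14V, and 21.1 and 18.3 in I14E. The 633 probes had 95.8 and 77.2 CPM in I1E, 78.6 and 84.4 in I7V, 106.1 and 127.9 in I7E, 54.1 and 69.1 in I14V, and 120.6 and 126.7 in I14E. Medullary tubules of the later vehicle groups thus stood between control and day 1 in both sets, apart from I14V section 1, which for the rising set was above day 1 section 1.

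**Figure D4:**
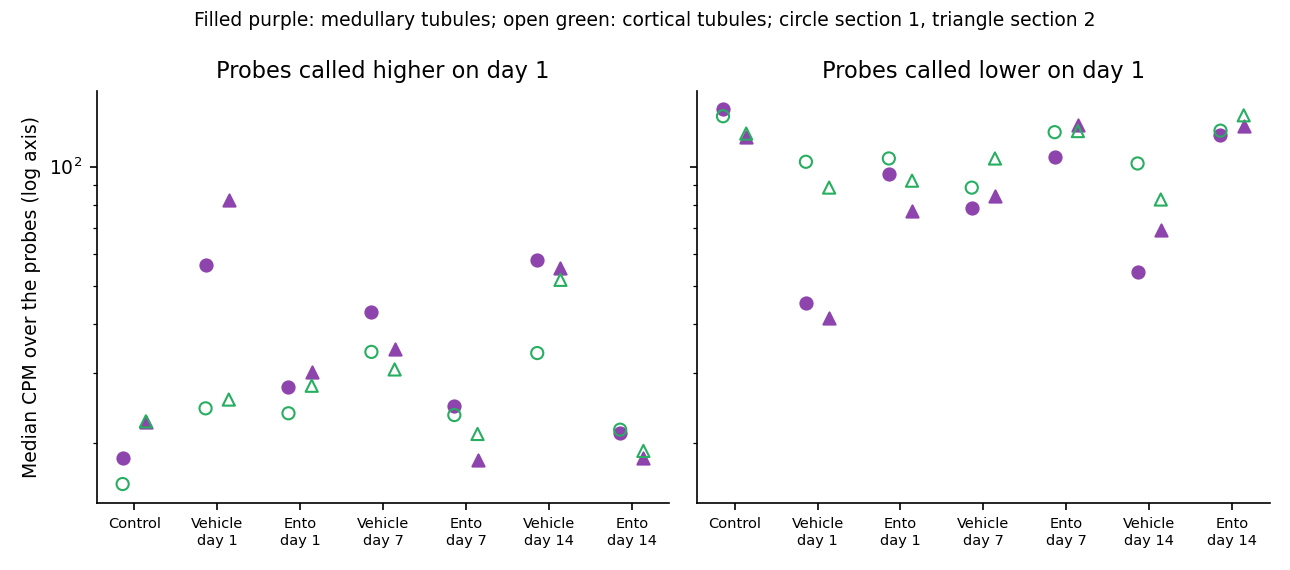
Points are the median CPM (log axis) of the 581 probes called higher (left) and the 633 called lower (right) in each tubule section of the 7 groups, filled for medulla and open for cortex, with circles for section 1 and triangles for section 2. In the medulla the probes called higher go from 18.3 and 22.6 CPM in controls to 56.3 and 82.6 CPM on vehicle day 1, while their cortical medians on vehicle day 1 are 24.4 and 25.7 CPM.

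Cortical tubules of the same sections were asked whether they showed the same change. There 5 probes were higher and 0 lower at the same thresholds, or 0.0248% and 0% of those tested. An unadjusted p under 0.05 in edgeR was reached by 957 of 20175 probes in the cortex and by 3739 in the medulla. In this fit the cortical count is no larger than probes without any effect would give at that threshold. It was 1161 with the prefix as a replicate block and 1300 after quantile normalization, so it depended on the fit. The median cortical log2 fold change over all probes was 0.02, and 0.13 without control section 2. DESeq2 called 47 in the cortex, and the number called in edgeR moved when a section was left out. The 5 probes had cortical log2 fold changes of 1.74 to 2.65. In the medulla 4 of them were also called higher, and the fifth had a log2 fold change of 5.04 with an adjusted p of 0.0557 (edgeR).

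Most probes called in the medulla had an estimated difference under 2-fold in cortical tubules, as did 19949 of all 20175 probes. A cortical difference beyond 2-fold was more frequent among the called probes than among all probes. The 581 probes that rose in the medulla had a median cortical log2 fold change of 0.22 (interquartile range 0.06 to 0.52), positive for 483 and above 2-fold for 48. The 633 that fell had a median of -0.50 (-0.69 to -0.29), negative for 589 and beyond 2-fold for 36. Over all probes the median was 0.02 (-0.11 to 0.13), with 11058 of 20175 positive. In cortical tubules the 581 probes had a median level of 15.7 and 22.6 CPM in controls and 24.4 and 25.7 CPM on day 1. The 633 probes had 134.2 and 121.3 CPM in controls and 102.9 and 88.5 CPM on day 1.

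The difference between regions was tested directly as an interaction in edgeR, with the section as a block. The day 1 effect differed for 483 probes (2.39%) at an adjusted p under 0.05, 233 with a higher effect in the medulla (1.15%) and 250 with a lower one (1.24%). Of the probes that rose in the medulla 203 of 581 (34.9%) were among them, of those that fell 213 of 633 (33.6%), and none in the opposite direction. The interaction used the same medullary segments that chose the called probes, so this overlap and its direction are partly built in. For the other 798 called probes the difference between regions was not called. The differences reached 3.49 upward and -3.41 downward on the log2 scale. Without control section 2 the count was 219, without control section 1 it was 160 and without day 1 section 2 it was 111.

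**Figure D5:**
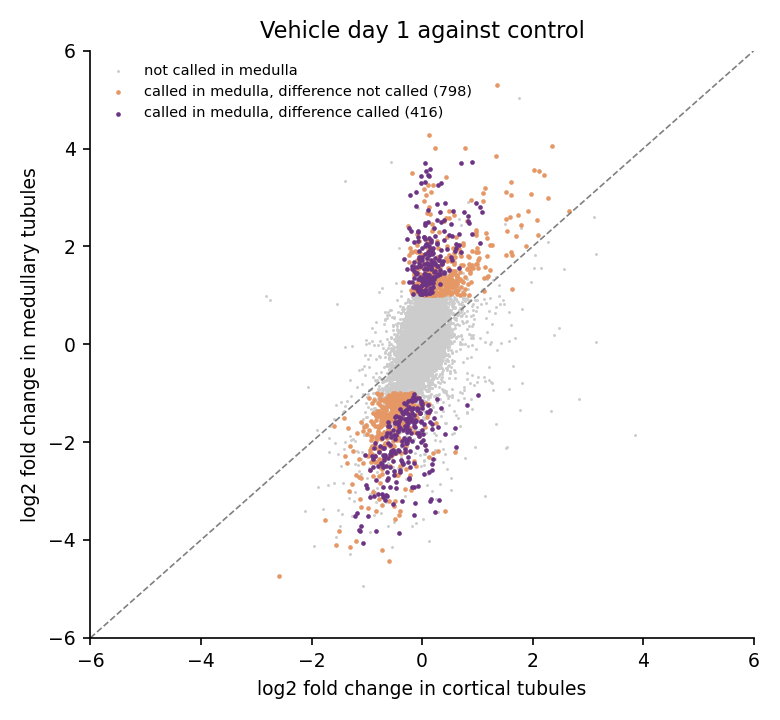
Each point is a probe with its log2 fold change of vehicle day 1 against control in cortical tubules (x axis) and in medullary tubules (y axis), with equality dashed. The 416 probes called in the medulla whose effect differed between regions are marked apart from the 798 whose difference was not called. Most called probes lie farther from 0 on the medullary than on the cortical axis, and the medullary values chose them.

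Many macrophage-leaning probes rose and many tubule-leaning probes fell in the medullary tubule segments. The lists came from the 10 sections of other groups, where 411 probes were higher in medullary macrophage segments and 264 in tubular segments of the same regions (2.04% and 1.31% of all probes). Of the macrophage-leaning probes 169 were called higher on day 1 (41.1%, against 2.88% of all probes) and 1 lower, with a median log2 fold change of 0.91 in the medulla and 0.05 in the cortex. Of the tubule-leaning probes 124 were called lower (47.0%, against 3.14% of all probes) and 8 higher, with medians of -2.04 and -0.17. RTS0064218 was one of the tubule-leaning probes that rose. The 19500 probes of neither list held 404 that rose and 508 that fell, so that most calls were outside both lists. Without control section 2, 128 macrophage-leaning probes rose and 3 fell, 4 tubule-leaning probes rose and 135 fell, and the remaining probes had 264 and 634. The median log2 fold changes of both lists kept their direction when other segments were left out. Without control section 1 they were 0.93 for macrophage-leaning and -1.38 for tubule-leaning probes. Without day 1 section 2 they were 0.59 and -1.80. Without day 1 section 1 both were larger in size than with all segments.

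The level of macrophage-leaning probes in tubule areas moved with these results. Their median in the medullary tubule segments was 16.0 and 20.5 CPM in controls and 31.1 and 50.2 CPM on day 1. In the medullary macrophage segments it was 34.5 and 54.7 CPM in controls and 70.0 and 59.3 CPM on day 1, from 116031, 146173, 314406 and 185451 counts. Tubule-leaning probes had medians of 198.4 and 122.9 CPM in control tubules and 57.4 and 43.7 CPM in day 1 tubules. Of the 581 probes that rose, 133 (22.9%) were higher in tubules than in the macrophage segment of the region in both day 1 sections, against 40.0% of all probes, and 225 (38.7%) were lower in both, against 16.9%. Of the 633 that fell, 446 (70.5%) were higher in tubules than in macrophages in both controls, against 25.6% of all probes. In both day 1 sections 283 of them (44.7%) were, near the 40.0% of all probes. The tubular values compared here also chose the probes, so a departure from the share of all probes is partly built in. The control macrophage segments were shallow, with medians of 3 and 4 counts per probe. The part of macrophage RNA in the day 1 tubular values was not tested.

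The regional lists moved with the choice of control. Of the 51 medulla-leaning probes 2 were called higher (3.92%) and 3 lower (5.88%), against 2.88% and 3.14% of all probes. Their median log2 fold change was -1.20, which became 0.91 without control section 1 and -1.96 without control section 2. Of the 122 cortex-leaning probes 1 was called higher (0.820%) and 19 lower (15.6%), with a median of -1.77. That median was -2.28 without control section 1, where the segment that went against its label was the only control. It was -0.62 without control section 2. In cortical tubules the medulla-leaning list had a median of 0.23 and the cortex-leaning list one of -0.84.

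The number of called probes depended on which segments were in the comparison. Without control section 1, 289 probes were higher and 274 lower. Without day 1 section 1 there were 568 and 311, and without day 1 section 2, the shallowest segment, 227 and 99. Of the first lists 262 and 252, 435 and 267, and 204 and 98 stayed called in these fits. Called in every one of the 4 fits that left out a segment were 146 of the 581 probes that rose and 83 of the 633 that fell.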

How the data were processed

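Counts of UMIs per probe were analyzed for mouse kidney areas profiled with the GeoMx Mouse Whole Transcriptome Atlas. The authors deposited whole counts of each segment, made from reads with the GeoMx NGS Pipeline (3.1.1.5 per the file headers, 1.1 per the labels, 2.2 in the deposited description), with no normalization. The authors deposited no estimated counts or expected counts, and the pipeline made every value from whole UMIs. The labels name the build mm10 and R 4.3.1. The authors' later removal of background, weak probes and 2 unnamed outlier samples was not repeated, so no segment was left out. Genes and probe sequences were not analysed here, since no table at hand pairs the identifiers with them.

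Segments were grouped by title, and the regions of a section were summed. The 14 medullary, the 14 cortical or all 28 tubule sums were normalized by the upper quartile, filtered with filterByExpr (minimum count 10, minimum total 15, which kept all 20175 probes) and tested with edgeR 4.0.16 in R 4.3.3 (robust quasi-likelihood, Benjamini-Hochberg adjustment). The size of a log2 fold change over the square root of its F statistic gave its SE. CPM are counts scaled to the total of the segment, and a pseudocount of 1 was used where stated. A permutation test of 2 against 2 sections cannot pass 0.05, so single values have none. The medullary and cortical lists and the macrophage and tubule lists were called at the same thresholds in the 10 sections of the other groups, with the section as a block. The edgeR test was tested on simulated data. Named probes are the pairs with the smallest adjusted p among those called higher and lower, and the extremes of fold change and the most abundant probe are described without a name. The members and lists were chosen with earlier results of these data known. Alternatives were TMM, no filter, DESeq2 1.42.0, limma 3.58.1 (voom), the 4 segments alone, regions as replicates, a prefix block, thinned counts, the most abundant probe removed and each section left out. Quantile normalization, the lists without single segments and the regional lists without I7E section 2 were added after seeing the data.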

Additional observations from a re-analysis of the deposited data

Results flagged for a closer look

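The day 1 effect differed between medullary and cortical tubules for 483 probes by the interaction test in edgeR with Benjamini-Hochberg adjustment. Of the probes named by identifier, RTS0069065 had a medullary log2 fold change higher than the cortical by 2.44 (SE 0.31) and RTS0062084 one that differed by -2.72 (SE 0.31). In both, the medullary day 1 segments were outside the range of all other control and day 1 tubule sections. The medullary side of the difference includes the control segment whose regional probes went against its label, and without that section 219 probes differed.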

How the results depend on the processing

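The medullary count of 1214 was between 1073 (TMM) and 1607 (the 4 segments alone) under the alternatives that kept all segments, and between 326 and 1168 when a segment was left out. It fell to 563 without control section 1 and to 326 without day 1 section 2. In a fit with 1 segment in a group, its spread was taken from the other groups. The split of calls, 581 higher and 633 lower, was 544 and 937 with regions as replicates in DESeq2, 396 and 772 without control section 2, and 743 and 657 after quantile normalization. In every alternative, 144 of the probes that rose and 83 of those that fell stayed called, and the 4 named probes were called in each. The cortical count of 5 became 47 with DESeq2, 19 with the replicate block and 9 after quantile normalization, and ranged from 0 to 21 with a section left out (0 without control section 1, with 472 at an unadjusted p under 0.05 in edgeR, 0 without day 1 section 2, with 199, and 21 without day 1 section 1). The regional difference of 483 became 161 with the prefix as replicate block in place of the section, and ranged from 111 to 470 with a section left out. The cause of these shifts was not tested. The section 1 minus section 2 differences of control and day 1 correlated at 0.03 over probes (-0.51 to 0.62 over 21 pairs of groups). The control difference includes the segment that went against its label, so this value cannot show whether prefix numbers pair the samples. With the replicate block the medullary count was 1301. Depth limits the day 1 side, where 1 count was worth up to 0.810 CPM, and 2 sections per group limit all counts.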
